A study of Mus musculus with 69 samples.

Results

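The 10 genes described here encode the epithelial sodium channel (ENaC) and the aldosterone pathway that controls it: Scnn1a, Scnn1b, Scnn1g, Sgk1, Nedd4l, Nr3c2, Hsd11b2, Kcnj1, Tsc22d3 and Fkbp5. Their Ensembl identifiers in the tables are, in that order, ENSMUSG00000030340, ENSMUSG00000030873, ENSMUSG00000000216, ENSMUSG00000019970, ENSMUSG00000024589, ENSMUSG00000031618, ENSMUSG00000031891, ENSMUSG00000041248, ENSMUSG00000031431 and ENSMUSG00000024222. They were taken by symbol from the 4 deposited expression tables, and all 10 were found in each of them, among 55487 genes at 24 h and 53700 at 72 h. RNA had been sequenced from tubules dissected by hand from kidneys of wild-type male C57BL/6 mice from Taconic that entered the study at 7 weeks of age. Each mouse had either a sham operation or a unilateral nephrectomy (UNx), in which a kidney is excised. The labels name the tubules PT-S1, the initial part of the proximal tubule, and CCD, the collecting duct of the cortex, and the times are 24 h and 72 h. PT-S1 had 3 sham and 4 UNx animals at 24 h (8 and 9 libraries) and 5 and 5 at 72 h (12 and 12 libraries). CCD had 4 sham and 3 UNx animals at 24 h (8 and 7 libraries) and 4 and 4 at 72 h (7 and 6 libraries). The animal is the number after the group in a sample's title, the replicate in all comparisons, so p-values measure the spread between animals as numbered there.

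Aldosterone, the salt-retaining hormone of the adrenal cortex, enters principal cells of the collecting duct and binds the mineralocorticoid receptor, the product of Nr3c2. The enzyme made from Hsd11b2 inactivates glucocorticoid in these cells, which leaves the receptor open to aldosterone. The activated receptor raises transcription of genes such as Sgk1, whose kinase phosphorylates the ubiquitin ligase Nedd4-2, the product of Nedd4l, and so keeps ENaC in the apical membrane. ENaC takes up sodium through a channel built of the alpha, beta and gamma subunits encoded by Scnn1a, Scnn1b and Scnn1g, and the potassium channel ROMK, encoded by Kcnj1, secretes potassium in exchange. Tsc22d3, which encodes GILZ, and Fkbp5, which encodes a co-chaperone of steroid receptors, are widely used as readouts of corticosteroid action.

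Promoter sequences were looked up because corticosteroid receptors bind a palindromic DNA element and its half-site. RefSeq windows of 250 bases before to 50 bases after a transcription start (GRCm38.p6) were matched by symbol for 7 of the 10 genes, giving 14 windows. Of these, Sgk1 gave 6 and Tsc22d3 gave 3. Both strands were searched for the palindrome, written as GNACA and TGTNC with 3 free bases between them (N is any base), and for the half-site TGTTCT, which can overlap it. The palindrome was found in 1 of the 14 windows, a Sgk1 window, against 0.475% of all 32851 windows. The half-site alone occurs in 19.0% of all windows, and 9 of the 14 windows held neither. The Sgk1 window is shown because it held the palindrome, from -188 to -176 relative to the start, with 3 half-sites that begin at -242, -189 (minus strand) and -180, of which the last 2 overlap the palindrome. Half-sites were also found in other Sgk1 windows (at -195, and at -13 on the minus strand) and in the Kcnj1 window (at -190 and -14, minus strand). A Tsc22d3 window with a single half-site, at -185, is shown beside the Sgk1 window with the palindrome. Capitals mark the matched bases, both windows are given 5' to 3' on the strand of the gene, and a match is a description of letters, not of binding.
Sgk1, chr10:21993640-21993939, plus strand: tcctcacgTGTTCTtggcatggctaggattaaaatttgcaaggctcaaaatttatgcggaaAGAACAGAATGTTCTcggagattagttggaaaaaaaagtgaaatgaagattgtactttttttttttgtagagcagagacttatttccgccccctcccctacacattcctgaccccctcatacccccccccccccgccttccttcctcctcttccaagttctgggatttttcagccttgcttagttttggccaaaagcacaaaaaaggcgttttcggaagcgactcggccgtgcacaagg
Tsc22d3, chrX:140600473-140600772, minus strand: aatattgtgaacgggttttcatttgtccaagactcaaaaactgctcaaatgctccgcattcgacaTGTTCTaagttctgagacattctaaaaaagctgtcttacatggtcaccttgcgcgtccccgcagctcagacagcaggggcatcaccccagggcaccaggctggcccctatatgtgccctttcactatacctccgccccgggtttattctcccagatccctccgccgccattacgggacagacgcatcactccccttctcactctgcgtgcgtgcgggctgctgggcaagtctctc

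Values are TPM, the abundance of transcripts per unit of length, scaled to a total of 1000000 in each library, so levels can be set side by side between genes but sequencing depth is unknown. Of the 69 libraries, 5 stood apart from the rest of their table, with a median correlation to the other libraries of 0.824 to 0.914, against at least 0.945 for the others. These were 2 sham libraries of PT-S1 at 24 h (animals 1 and 3), 2 UNx libraries of PT-S1 at 72 h (animals 1 and 2) and 1 sham library of CCD at 72 h (animal 1). Where leaving them out moved a printed change of a gene by more than 1.5 times, both values are given. The segment labels fitted their markers: the summed TPM of 5 principal cell markers (Aqp2, Aqp3, Aqp4, Avpr2, Gata3) ran from 13054 to 64262 in CCD libraries and from 8.12 to 141 in PT-S1 libraries, where Aqp3 made up nearly all of it. The summed TPM of 5 proximal tubule markers (Slc5a2, Slc5a12, Slc34a1, Lrp2, Gatm) ran from 2444 to 19176 in PT-S1 libraries and was at most 105.34 in CCD libraries. In bulk tubules, fewer cells of a type and less RNA per cell cannot be told apart.

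In the CCD all 10 genes were expressed, with sham means from 3300 down to 46.2 TPM at 24 h. Hsd11b2 was the highest of them, at 3300 TPM ± 352 (SD, n = 4) in sham animals at 24 h, which placed it at rank 19 of all genes, and 2764 ± 760 (n = 4) at 72 h, rank 28. Below it at 24 h stood Kcnj1 at 1471 ± 496, Scnn1g at 1069 ± 84.4, Scnn1b at 1066 ± 41.4 and Sgk1 at 836 ± 268, whose animals overlapped with one another. Nedd4l at 401 ± 67.6 and Scnn1a at 298 ± 66.5 came next and overlapped with each other, and the highest Nedd4l animal (484 TPM) lay above the lowest Sgk1 animal (473 TPM). Tsc22d3 at 98.5 ± 13.5 lay above Nr3c2 at 78.0 ± 6.04 without overlap between animals, and Fkbp5 at 46.2 ± 19.9 overlapped with Nr3c2. At 72 h Kcnj1, Scnn1b and Scnn1g again stood below Hsd11b2 and overlapped, while Sgk1, at 279 ± 88.8, lay with Scnn1a at 359 ± 115 and Nedd4l at 354 ± 65.4. Tsc22d3 and Nr3c2 overlapped at 72 h, and with all libraries Fkbp5 at 32.0 ± 7.15 lay below Nr3c2 in every animal. Without the sham library that stood apart, Fkbp5 reached 56.6 TPM in a sham animal and overlapped with Nr3c2, whose lowest sham animal had 51.0 TPM. The sham animals' Sgk1 ran from 473 to 1119 TPM in the 24 h table and from 188 to 400 TPM in the 72 h table, with no overlap. The tables of the 2 times were set side by side without a test, since they may have been made separately and hold different animals.

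In PT-S1 the channel genes were close to 0, while the kinase, the ligase and the hormone readouts were present. Scnn1b was listed at 0 in 6 of 8 sham and 7 of 9 UNx libraries at 24 h, and its highest library there had 0.10 TPM. Scnn1a did not pass 0.24 TPM at 24 h. Hsd11b2 had at most 0.60 TPM and Kcnj1 at most 0.61 TPM at that time. An exception stood at 72 h: library 1 of sham animal 3 had 1.46 TPM of Scnn1a, 2.87 of Scnn1b, 2.27 of Scnn1g, 11.6 of Hsd11b2 and 6.79 of Kcnj1. The same library had the highest sum of 4 connecting tubule markers in PT-S1 (187 TPM, against medians of 1.34 in sham and 0.76 in UNx libraries at 72 h), and the part of this in its values was not tested. In sham PT-S1 at 24 h, Tsc22d3 had 56.0 TPM ± 4.91 (n = 3), Fkbp5 49.8 ± 24.0, Nedd4l 43.4 ± 20.9, Sgk1 18.3 ± 8.31 and Nr3c2 1.89 ± 0.24. In all sham animals of both times, the receptor gene Nr3c2 had 1.23 to 2.31 TPM in PT-S1 and 51.0 to 84.7 TPM in CCD.

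**Figure D1:**
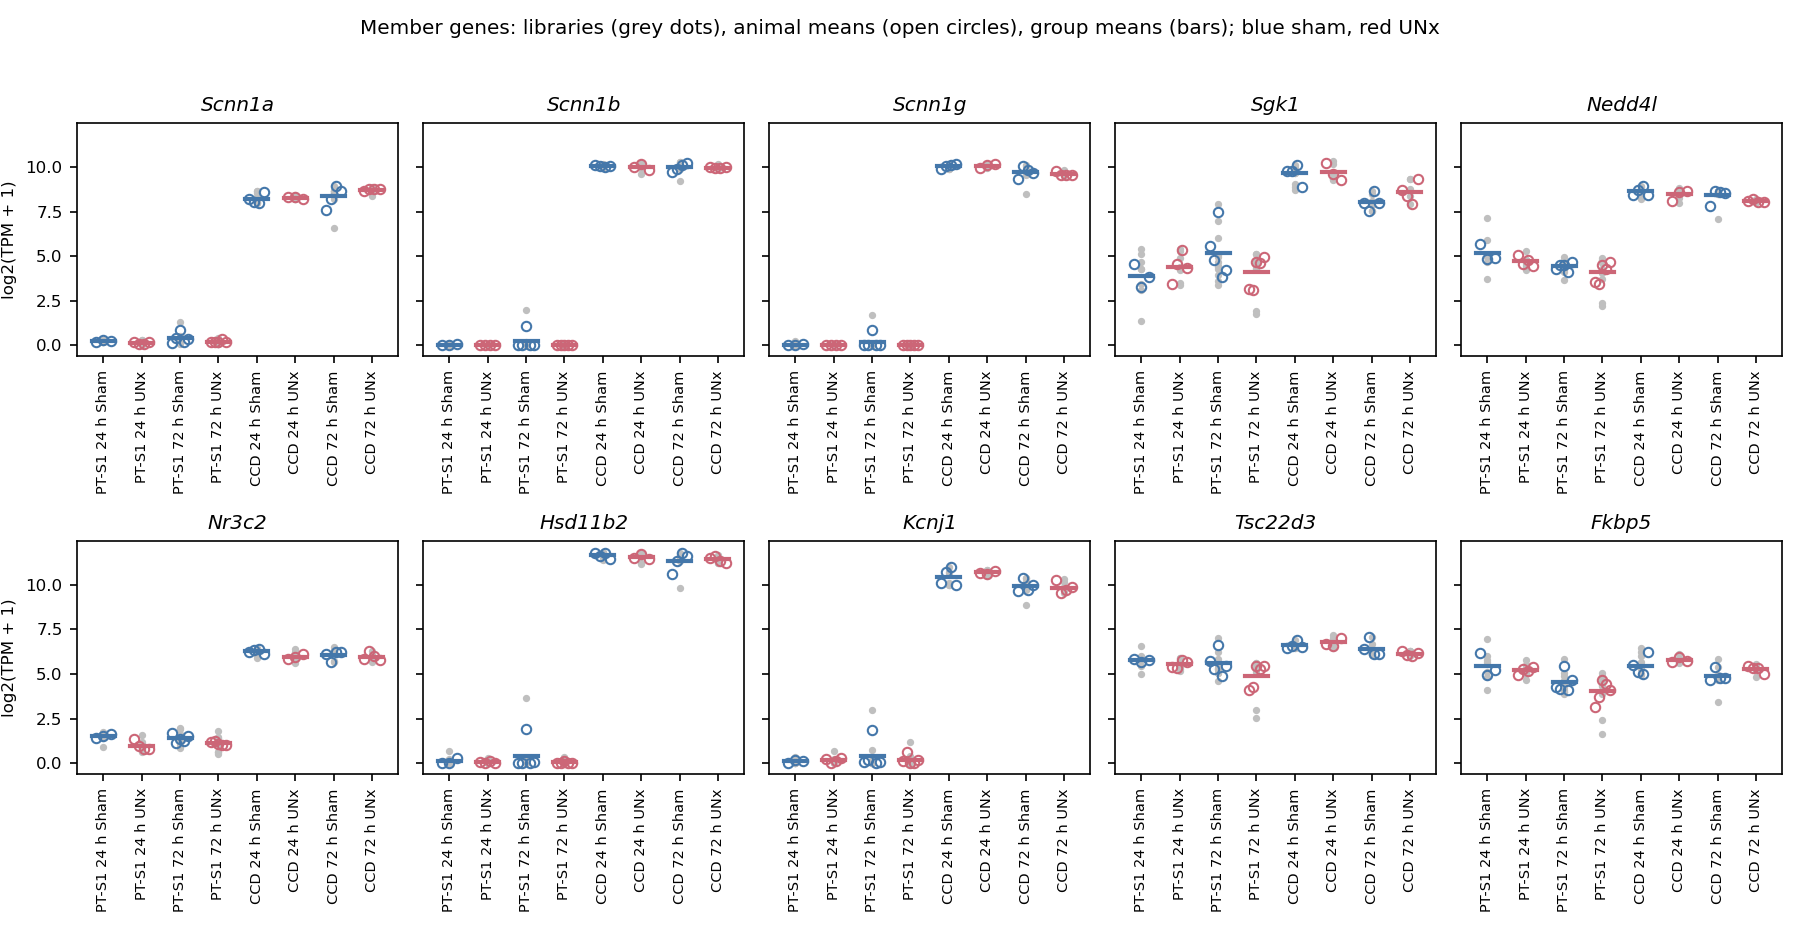
Log2(TPM + 1) of each of the 10 genes in the 8 groups, with libraries as grey dots, animals as open circles and the group mean as a bar, sham in blue and UNx in red. The ENaC subunits, Hsd11b2 and Kcnj1 are near 0 in PT-S1 and high in CCD, and Sgk1 in CCD sham animals is at 473 to 1119 TPM at 24 h and 188 to 400 TPM at 72 h.

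The first question was whether loss of a kidney changed these genes within each segment and time. UNx was compared with sham on log2(TPM + 1) per animal by limma, with Benjamini-Hochberg adjustment over all genes averaging 1 TPM or more and a threshold of 0.05; every change below is on this scale, which understates the change of low genes. In CCD at 24 h none of the 10 members passed, where 0.987% of 13775 genes did (136 genes). In CCD at 72 h none of 10 passed with all libraries, where 0.595% of 13770 genes did (82 genes). In PT-S1, 5 members could be tested (Sgk1, Nedd4l, Nr3c2, Tsc22d3 and Fkbp5), the other 5 falling under the filter on low values. None of the 5 passed at either time, where 0 of 11874 and 0 of 11886 genes did by limma's adjusted p; at an unadjusted p under 0.05, 17.8% and 20.5% of genes passed, with 1 of 5 members at 24 h and 0 of 5 at 72 h. At the same unadjusted level, 1 of 10 members passed in CCD at 24 h, against 15.5% of genes, and 0 of 10 at 72 h, against 7.49%. Without the libraries that stood apart, 0 of 5 members passed in PT-S1 at 24 h and at 72 h, where 0.00847% and 0.00837% of genes did. The 1 member called under any alternative was Nedd4l in CCD at 72 h.

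Among the ENaC subunits, the beta and gamma subunit genes did not pass the threshold and had changes near 0 at 24 h. Scnn1b had 1116, 1050, 1019 and 1080 TPM in the 4 sham and 1037, 1168 and 917 TPM in the 3 UNx animals of CCD at 24 h, and the groups overlapped. Its change was -0.04 (95% confidence interval -0.25 to 0.17), and at 72 h it was -0.01 (-0.28 to 0.26), or -0.13 (-0.35 to 0.08) without the sham library that stood apart. The gamma subunit gene Scnn1g had 954, 1059, 1127 and 1138 TPM in sham and 1005, 1097 and 1136 TPM in UNx animals at 24 h, a change of 0.01 (-0.18 to 0.21). At 72 h Scnn1g had 736, 1063, 906 and 801 TPM in sham and 870, 757, 737 and 748 TPM in UNx animals, a change of -0.11 (-0.44 to 0.22) with all libraries and -0.31 (-0.57 to -0.05) without the sham library that stood apart. Neither passed the threshold (limma adjusted p = 0.939 and 0.279).

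Scnn1a, the alpha subunit whose gene is a known aldosterone target in kidney, was lower than its partners. It had 292, 259, 249 and 394 TPM in sham and 320, 314 and 298 TPM in UNx animals at 24 h. At 72 h the sham animals had 243, 289, 498 and 407 TPM and the UNx animals 403, 435, 433 and 428 TPM. The UNx animals were close together and lay inside the sham range at both times. The change was 0.08 (-0.25 to 0.41) at 24 h and 0.37 (-0.18 to 0.93) at 72 h, and without the sham library that stood apart the latter was 0.12 (-0.20 to 0.44).

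The balance of the subunits was read as a ratio within each library, which no scaling between libraries can alter. Scnn1a made up 12.2% ± 2.10 (SD, n = 4) of the summed subunit TPM in sham and 12.8% ± 0.68 (n = 3) in UNx animals of CCD at 24 h. At 72 h its share was 15.3% ± 3.72 (n = 4) in sham and 19.2% ± 1.36 (n = 4) in UNx animals. The log2 ratio of Scnn1b to Scnn1a was 1.86 ± 0.28 and 1.74 ± 0.15 at 24 h, and 1.63 ± 0.39 and 1.25 ± 0.10 at 72 h. The log2 ratio of Scnn1g to Scnn1a was 1.86 ± 0.30 and 1.80 ± 0.14 at 24 h, and 1.36 ± 0.52 and 0.88 ± 0.17 at 72 h. Sham and UNx animals overlapped in each of these, also without the sham library that stood apart at 72 h, where UNx differed from sham by -0.25 and -0.43. Beta and gamma transcripts were thus 2.57 to 3.64 times as abundant as alpha transcripts in sham CCD, by the geometric mean over animals.

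**Figure D2:**
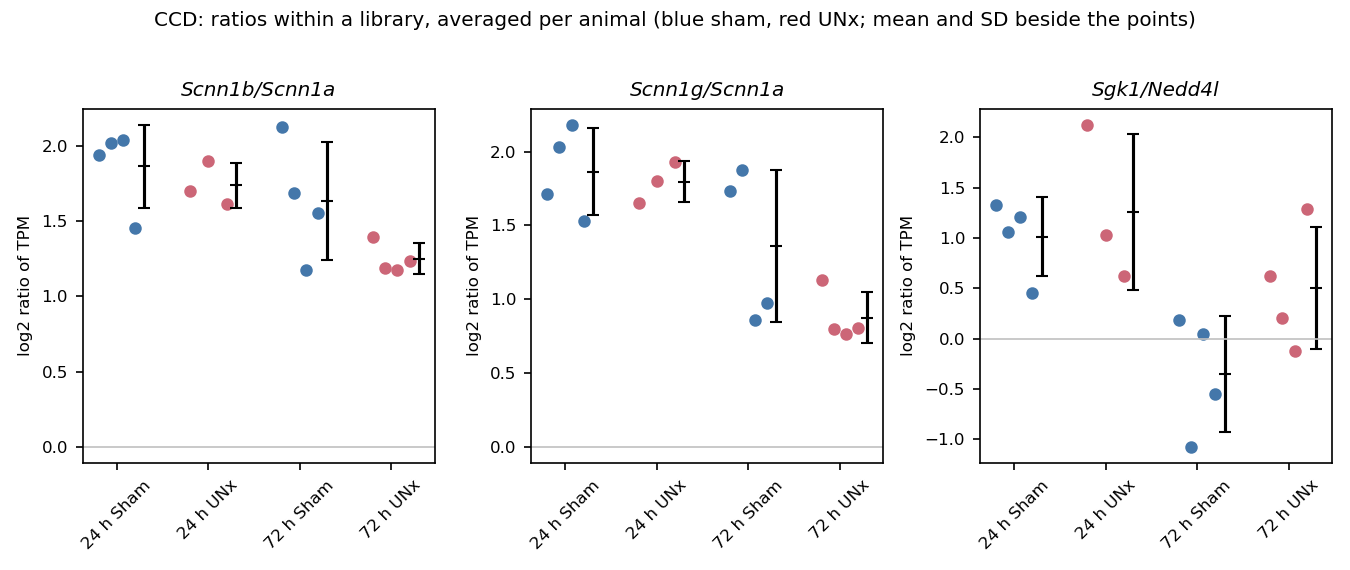
Log2 ratio of TPM within a library, averaged per animal, for Scnn1b to Scnn1a, Scnn1g to Scnn1a and Sgk1 to Nedd4l in the 4 CCD groups, sham in blue and UNx in red, with the mean and SD beside the points. Sham and UNx animals overlap in every panel and time, and the Scnn1b to Scnn1a ratios of UNx animals at 72 h lie between 1.18 and 1.40.

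Nedd4l, which encodes the ubiquitin ligase that removes ENaC from the membrane, gave a result that depended on 1 library. In CCD at 72 h its 4 sham animals had 257, 395, 389 and 377 TPM and its 4 UNx animals 270, 292, 262 and 262 TPM. Sham animals 2, 3 and 4 lay above every UNx animal and sham animal 1 lay below them. The low value of sham animal 1 came from a pair of libraries with 379 and 135 TPM, of which the second is the CCD library that stood apart. With all libraries the change was -0.32 (-0.69 to 0.06; limma adjusted p = 0.764). Without that library sham had 385 TPM ± 8.52 (n = 4) and UNx 272 ± 14.2 (n = 4), the groups did not overlap, and Nedd4l passed the threshold with a change of -0.50 (-0.66 to -0.34; limma adjusted p = 0.0138). In that setting 0.937% of 13770 genes passed and 8.54% had groups that did not overlap, and Nedd4l was the 1 member of 10 in either count. Without sham animal 1 as a whole the change was -0.51 (limma adjusted p = 0.0348), where 0.471% of genes passed. Leaving out any other animal kept the change between -0.24 and -0.35 and the adjusted p at 0.749 or more.

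The library that stood apart in CCD at 72 h was the lowest of the table for 49.2% of the 13770 genes tested. It was below each of the other 12 libraries for 8 of the 10 members, among them Scnn1a (93.3 TPM against 289 to 498), Scnn1g (364 against 727 to 1109), Hsd11b2 (902 against 2416 to 3524) and Fkbp5 (9.79 against 24.7 to 56.6). Nr3c2 at 51.2 TPM and Tsc22d3 at 68.2 TPM lay inside the range of the other libraries. Its principal cell marker sum of 18526 TPM was inside the range of the other libraries, and 12681 genes reached 1 TPM in it against 13348 to 14875 in the others.

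**Figure D3:**
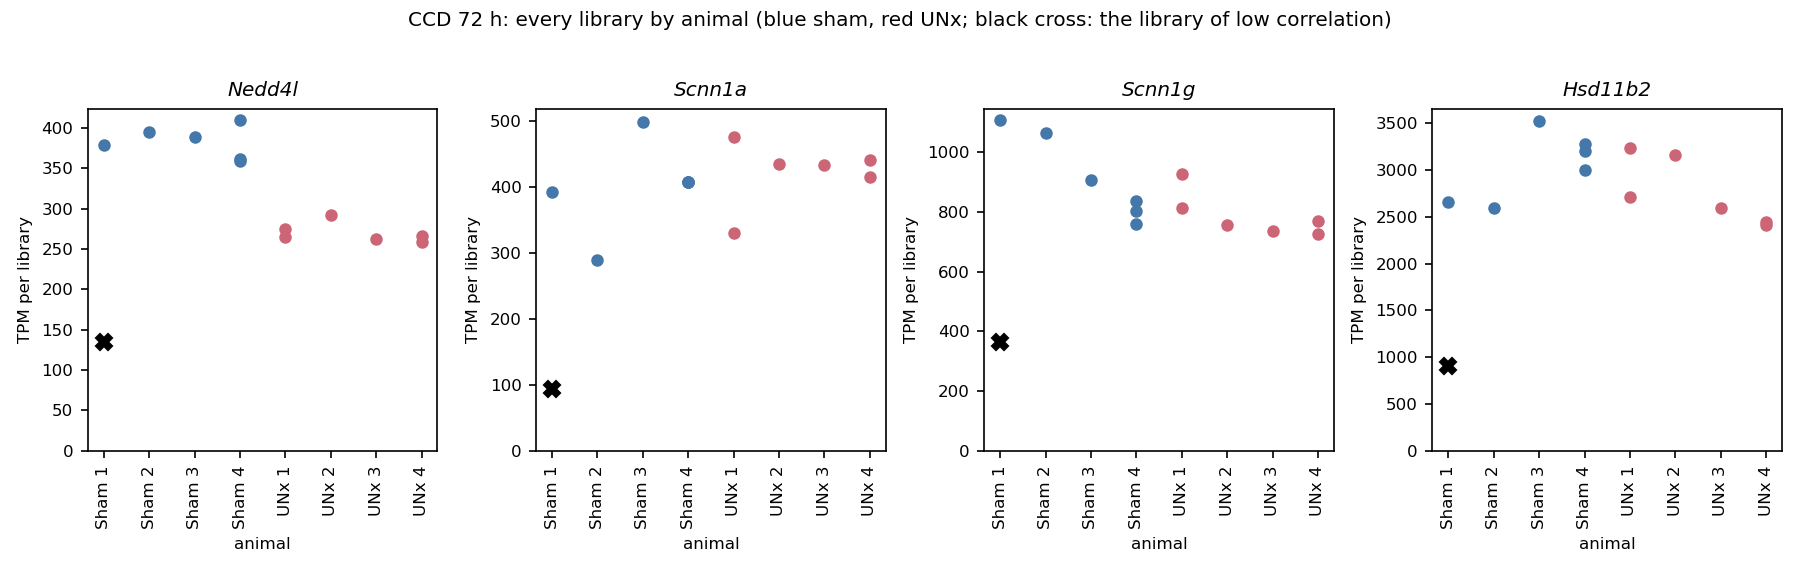
TPM of Nedd4l, Scnn1a, Scnn1g and Hsd11b2 in each library of CCD at 72 h by animal, sham in blue, UNx in red, with the sham library that stood apart as a black cross. For Nedd4l the other sham libraries lie above all UNx libraries, with animal means of 377 to 395 TPM against 262 to 292 TPM.

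At 24 h Nedd4l in CCD had 345, 428, 484 and 345 TPM in sham and 278, 391 and 410 TPM in UNx animals, with overlap and a change of -0.16 (-0.53 to 0.21). The difference between its 72 h and 24 h effects was -0.16 (-0.70 to 0.39) with all libraries and -0.34 (-0.73 to 0.04; limma adjusted p = 0.626) without the library that stood apart. In PT-S1 it had 67.2, 28.2 and 34.8 TPM in sham and 32.5, 23.0, 26.4 and 20.9 TPM in UNx animals at 24 h, and 16.9 to 24.9 TPM in sham and 14.3 to 24.9 TPM in UNx animals at 72 h. Its change there was -0.44 at 24 h and -0.33 at 72 h, and without the libraries that stood apart it was -0.41 and 0.15. Between CCD and PT-S1 at 72 h its effect differed by 0.02 (-0.69 to 0.72) with all libraries and by -0.65 (-0.98 to -0.33; limma adjusted p = 0.112) without those that stood apart.

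Sgk1, the aldosterone-induced kinase, had a wide spread between animals. In CCD at 24 h it had 862, 891, 1119 and 473 TPM in sham and 1205, 796 and 629 TPM in UNx animals. Libraries of 1 animal differed by an SD of 0.12 on the log2 scale, and animals of 1 group by 0.51. At 72 h it had 270, 188, 400 and 257 TPM in sham and 416, 337, 242 and 638 TPM in UNx animals. Of the 4 UNx animals, 3 were above the sham mean of 279 TPM, and the groups overlapped. The change was 0.08 (-0.59 to 0.75) at 24 h and 0.53 (-0.13 to 1.19; limma adjusted p = 0.786) at 72 h. The log2 ratio of Sgk1 to Nedd4l within a library was 1.01 ± 0.39 and 1.26 ± 0.78 at 24 h, and -0.35 ± 0.58 and 0.50 ± 0.61 at 72 h in sham and UNx, with overlap at both times.

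In PT-S1 Sgk1 had 23.8, 8.77 and 22.5 TPM in sham and 9.86, 23.6, 39.2 and 18.9 TPM in UNx animals at 24 h. At 72 h the sham animals had 48.4, 26.9, 186, 13.8 and 17.5 TPM and the UNx animals 12.5, 10.9, 24.0, 24.4 and 30.2 TPM. A single sham animal, number 3, stood far above the others. Its 2 libraries, of which 1 carried the connecting tubule markers, had 126 and 245 TPM, and the higher value was in the other library. The change at 72 h was -1.07 (-2.41 to 0.28) with all animals and -0.49 (limma adjusted p = 0.527) without that animal. It was -0.54 (limma adjusted p = 0.626) with that animal kept and the 2 UNx libraries that stood apart left out. The UNx effect in PT-S1 differed between times by -1.60 (-3.46 to 0.27) and between CCD and PT-S1 at 72 h by 1.60 (-0.09 to 3.28), and neither passed (limma adjusted p = 0.998 and 0.495). Without the libraries that stood apart these differences were -0.75 and 0.96.

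Nr3c2, the mineralocorticoid receptor gene, had lower means after UNx in all 4 tables, in none of them past the threshold. In CCD at 24 h it had 76.2, 80.5, 84.7 and 70.5 TPM in sham and 57.1, 61.3 and 70.7 TPM in UNx animals, where the lowest sham animal and the highest UNx animal overlapped. The change was -0.32 (-0.54 to -0.10; limma adjusted p = 0.165), and it stayed between -0.40 and -0.25 under the 15 alternatives with adjusted p from 0.135 to 0.454. At 72 h the change was -0.09 (-0.42 to 0.25), and the difference between the times, 0.23 (-0.17 to 0.64), did not pass. Without the library that stood apart these were -0.19 and 0.13. In PT-S1 at 24 h the sham animals had 1.68, 1.85 and 2.15 TPM and the UNx animals 1.62, 0.98, 0.76 and 0.70 TPM, all below sham. This was the 1 of 5 members tested there whose groups did not overlap, against 21.3% of all genes. The change was -0.53, or -0.34 once the median change of the table was subtracted, and without the 2 sham libraries that stood apart the groups overlapped and the change was -0.47. In PT-S1 at 72 h the change of Nr3c2 was -0.29, the same as the median of all genes, and -0.14 without the libraries that stood apart. Without them 0 of 5 members had groups apart at 24 h (22.9% of genes) and 0 of 5 at 72 h (3.07%). Non-overlapping groups were found for 0 of 5 members in PT-S1 at 72 h (5.58% of genes), 0 of 10 in CCD at 24 h (15.0%) and 0 of 10 in CCD at 72 h with all libraries (4.77%).

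Hsd11b2, whose product guards the receptor from glucocorticoid, had 3578, 3186, 3585 and 2852 TPM in sham and 2994, 3476 and 2860 TPM in UNx animals of CCD at 24 h. At 72 h the sham animals had 1780, 2592, 3524 and 3161 TPM and the UNx animals 2974, 3162, 2595 and 2432 TPM. Its change was -0.10 (-0.36 to 0.16) at 24 h and 0.10 (-0.41 to 0.61) at 72 h, and the latter was -0.09 without the sham library that stood apart.

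Kcnj1, the ROMK gene, split the sham animals of CCD at 24 h, with 1691 and 2067 TPM in animals 2 and 3 and 1086 and 1040 TPM in animals 1 and 4. The 3 UNx animals had 1638, 1591 and 1786 TPM and lay with the higher sham animals. The principal cell marker sum was split in the same way: 38848 to 41983 TPM in the libraries of sham animals 2 and 3, 13054 to 17151 TPM in those of animals 1 and 4, and 35915 to 64262 TPM in the UNx libraries. The markers in this sum changed unevenly after UNx at 24 h. The changes were 1.06 for Aqp2, 0.74 for Aqp3, 0.66 for Aqp4, 0.31 for Avpr2 and 0.10 for Gata3, none past the threshold. The part of the marker sum in the Kcnj1 values was not tested. The change of Kcnj1 was 0.24 (-0.27 to 0.75) at 24 h. At 72 h the sham animals had 910, 1362, 852 and 1035 TPM and the UNx animals 1234, 752, 843 and 933 TPM, with overlap and a change of -0.10 (-0.53 to 0.34), or -0.29 without the sham library that stood apart. A thick ascending limb marker sum of 6886 TPM in library 1 of sham animal 2, against 71.7 to 1432 TPM in the other CCD libraries at 24 h, stood beside a Kcnj1 of 1660 TPM there and 1722 TPM in the other library of that animal. Without sham animal 2 the change was 0.33, and leaving out each other animal in turn it stayed positive.

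The readouts of corticosteroid action, Tsc22d3 and Fkbp5, did not pass the threshold in any table. In CCD at 24 h Tsc22d3 had 87.6, 95.7, 118 and 92.4 TPM in sham and 101, 95.8 and 132 TPM in UNx animals. At 72 h it had 84.6, 132, 68.9 and 67.9 TPM in sham and 78.1, 67.2, 62.4 and 72.3 TPM in UNx animals, where sham animal 2 stood above the rest. Its change was 0.14 (-0.16 to 0.45) at 24 h and -0.28 (-0.72 to 0.16) at 72 h. Fkbp5 in CCD had 44.1, 34.4, 31.3 and 74.9 TPM in sham and 49.6, 62.0 and 52.3 TPM in UNx animals at 24 h. At 72 h it had 33.2, 41.7, 26.6 and 26.6 TPM in sham and 42.4, 39.6, 39.1 and 31.5 TPM in UNx animals. Its change was 0.32 (-0.27 to 0.90) at 24 h and 0.37 (-0.02 to 0.77) at 72 h, the latter 0.07 without the sham library that stood apart.

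In PT-S1 at 24 h Tsc22d3 had 57.6, 50.5 and 59.9 TPM in sham and 41.3, 39.2, 54.0 and 50.3 TPM in UNx animals, and Fkbp5 had 76.6, 30.5 and 42.2 TPM in sham and 30.2, 38.0, 35.4 and 42.9 TPM in UNx animals. Both overlapped, and their changes of -0.23 and -0.25 stood beside a median of -0.19 over all genes. In PT-S1 at 72 h the same genes had changes of -0.70 for Tsc22d3 and -0.51 for Fkbp5, where the median change of all genes was -0.29. Sham animal 3, which stood out for Sgk1, also had the highest Tsc22d3 (103 TPM, others 29.1 to 52.2) and Fkbp5 (43.9 TPM, others 16.2 to 24.7). Without the 2 UNx libraries that stood apart, the median change of all genes was -0.02, Tsc22d3 changed by -0.15 and Fkbp5 by 0.06. The difference of the Fkbp5 effect between CCD and PT-S1 at 72 h was 0.88 (0.01 to 1.74; limma adjusted p = 0.495) with all libraries and 0.01 without those that stood apart. None of the members passed in any of the 4 tests of a difference between times or segments, where 0 of 11455, 0 of 13253, 0.137% of 10988 and 0 of 11035 genes did by limma; at an unadjusted p under 0.05 the shares of genes were 3.33%, 4.96%, 15.4% and 9.33%.

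**Figure D4:**
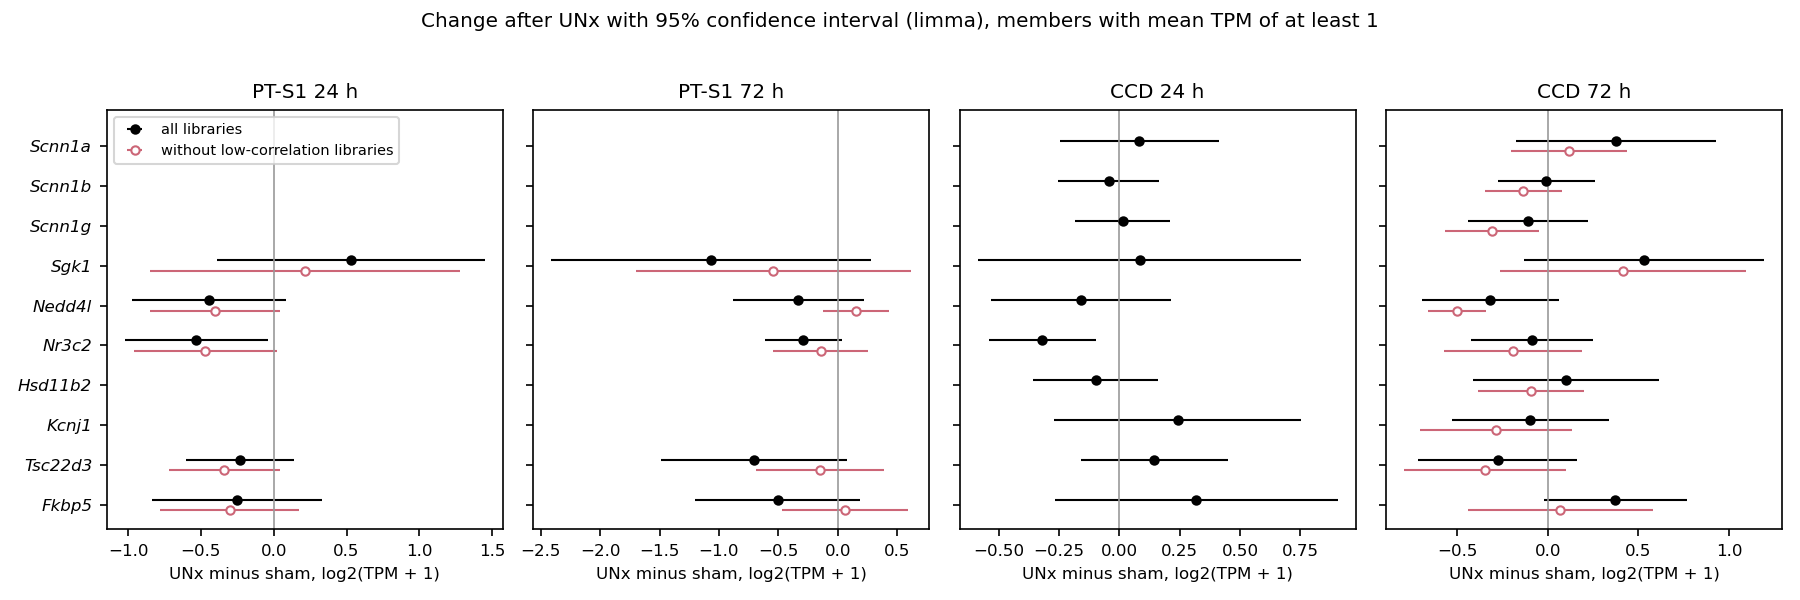
Change after UNx with its 95% confidence interval from limma for the members that could be tested in each table, black with all libraries and open red without the libraries that stood apart (CCD at 24 h had none). Among intervals with all libraries, those of Scnn1g and Scnn1b in CCD at 24 h are the narrowest, and Nedd4l in CCD at 72 h moves from -0.32 to -0.50 and away from 0.

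Deviations of the 15 CCD animals from their group means were compared between members as a description, since animals of a table share their processing. Over the 45 pairs the median Pearson r was 0.19, and -0.02 without the library that stood apart. The 10 pairs above 0.5 shrank to 4 without it, of which 3 were among the 10, so the correlation of Scnn1b with Hsd11b2 (0.77) became 0.43 and that of Nedd4l with Hsd11b2 (0.72) became 0.28. Sgk1 and Fkbp5 ran in opposite directions, with r = -0.70, -0.82 within the 24 h and -0.61 within the 72 h table, and -0.50 without that library. Tsc22d3 ran with Kcnj1 (0.67, and 0.71 without it) and with Scnn1g (0.55 and 0.77), and against Scnn1b (-0.61 and -0.70). Pairs under -0.5 rose from 2 to 4 without that library, where Scnn1a ran against Kcnj1 (-0.77, and -0.27 with it) and against Tsc22d3 (-0.72, and -0.46 with it). Among 8469 genes, those most like Scnn1b were Vps9d1 (0.93), Slc44a3 (0.90) and Slc7a8 (0.89). Those most like Sgk1 were Thoc6 (0.93), Tmem147 (0.76) and Fancl (0.73). Those most like Tsc22d3 were Gnpnat1 (0.94), Snx6 (0.91) and Ube2v1 (0.90). These genes were picked as the highest of 8469 over 15 animals, which favours high r, and no background was computed. Within the 24 h and 72 h tables r was 0.65 and 0.98 for Slc7a8, 0.91 and 0.61 for Tmem147, and 0.50 and 0.87 for Fancl. The others had an r of at least 0.81 in both.

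The wider pathway was read from 36 genes in 4 groups. Of the 35 tested in CCD at 24 h, 1 fell and 0 rose past the threshold, where 0.987% of all genes passed. At 72 h 0 of 35 passed, against 0.595% of genes. In PT-S1 0 of 27 passed at each time, as did 0% of genes. The gene that fell was Zbtb16, a zinc finger transcription factor induced by glucocorticoids. Its level in CCD at 24 h was 22.7 TPM ± 4.39 (n = 4) in sham and 9.61 ± 2.30 (n = 3) in UNx animals, without overlap (15.0% of genes in that table), a change of -1.17 (SE 0.19; limma adjusted p = 0.0320). The call was lost without filter (limma adjusted p = 0.0922) and with a replicate block (limma adjusted p = 0.151). It was also lost when any of sham animals 1, 3 and 4 or UNx animals 1 and 2 was left out. The change of Zbtb16 stayed between -1.34 and -1.07 under the 15 alternatives. Its limma adjusted p ran from 0.0335 to 0.127 on leaving out 1 animal. Over the other alternatives, which include every library as a replicate, it ran from 0.00252 to 0.151. At 72 h Zbtb16 had 11.7 TPM ± 3.05 in sham and 6.33 ± 1.83 in UNx animals, a change of -0.77 (limma adjusted p = 0.300). The effects at both times did not differ past the threshold (0.40, limma adjusted p = 0.968). Without the library that stood apart the 72 h change was -0.92 (limma adjusted p = 0.129), nearer to that at 24 h.

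The 9 corticosteroid-responsive genes had a median change of -0.42 in CCD at 24 h and -0.57 at 72 h, where the medians over all genes were -0.04 and 0.01. The members Fkbp5 and Tsc22d3, readouts of corticosteroid action, and Sgk1, an aldosterone-induced gene, are outside this group and did not fall together. In CCD at 24 h Fkbp5 changed by 0.32, Sgk1 by 0.08 and Tsc22d3 by 0.14. At 72 h these were 0.37 (0.07 without the library that stood apart), 0.53 and -0.28. At 24 h 3 of the 9 had an unadjusted p under 0.05 in limma, against 15.5% of all genes. At 72 h 5 of the 9 did, against 7.49%, and 0 passed after adjustment. The list was chosen with earlier results of these data known, so such counts are a description and not a test of the group. In PT-S1 the counts were 1 of 6 at 24 h, against 17.8%, and 2 of 5 at 72 h, against 20.5%. Without the PT-S1 libraries that stood apart they were 2 of 7, against 24.7%, and 0 of 6, against 17.7%. Without the CCD library that stood apart the median at 72 h was -0.61 and the count was again 5 of 9, against 14.2% of all genes. The 5 counted at 72 h with all libraries, named after their values were seen, were Nfkbia, Dusp1, Per1, Errfi1 and Zbtb16, all with negative changes. Nfkbia, the NF-kappaB inhibitor, had 663 TPM ± 318 in sham and 269 ± 218 in UNx (n = 4 and 4), a change of -1.42 (SE 0.48; limma adjusted p = 0.442). Dusp1, a phosphatase of MAP kinases, had 137 ± 83.4 and 63.8 ± 72.2, a change of -1.45. Ddit4, which restrains mTOR, had the largest positive change of the named pathway genes in CCD at both times, 0.68 at 24 h and 0.64 at 72 h, with ranges of 0.42 to 1.02 and 0.18 to 1.28 over the alternatives.

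**Figure D5:**
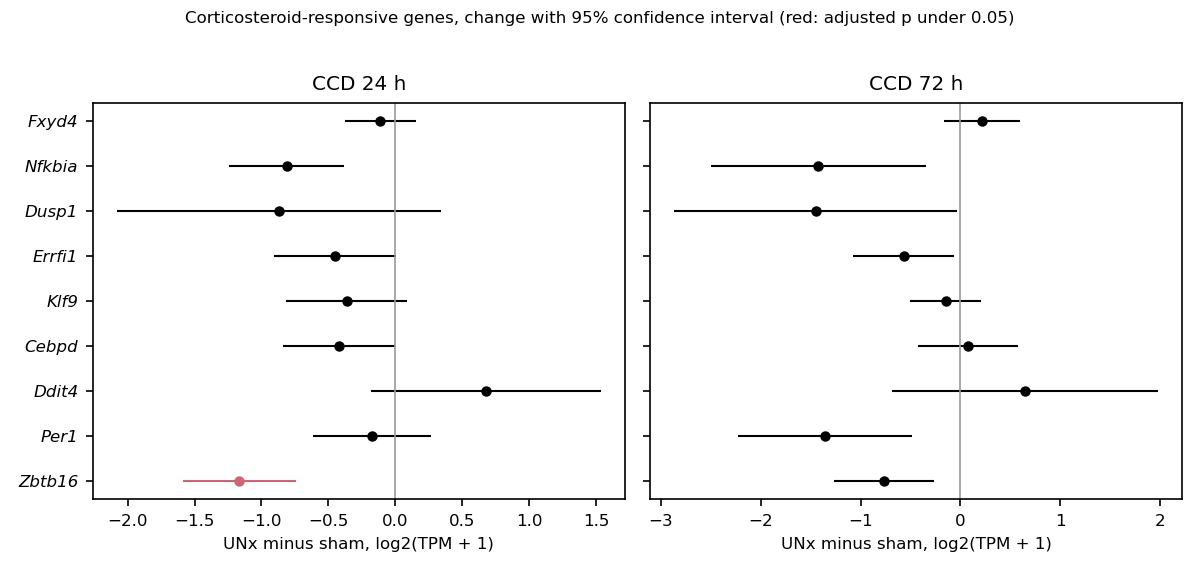
Change after UNx in CCD at 24 h and 72 h for the 9 corticosteroid-responsive genes with the 95% confidence interval from limma. Zbtb16 at 24 h, in red, is the 1 gene past the threshold, with a change of -1.17.

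The other 3 groups held no gene past the threshold in any table. Of the 14 regulators of ENaC processing, ubiquitin and kinases, 14 were tested in CCD, with a median change of -0.08 at 24 h and 0.04 at 72 h, the latter -0.11 without the library that stood apart. Cul3, a scaffold of ubiquitin ligases, had 37.2 TPM ± 16.6 in sham and 62.8 ± 8.47 in UNx animals at 24 h. Its change was 0.35 with libraries averaged on the log2 scale, 0.84 with TPM averaged per animal first, and 0.11 to 0.58 on leaving out 1 animal. The 7 tested genes of the sodium pump and potassium channels had a median of -0.24 at 24 h and 0.23 at 72 h, the latter 0.06 without that library. At an unadjusted p under 0.05 in limma, 5 of the 7 passed at 24 h, against 15.5% of genes, and 0 of 7 at 72 h, against 7.49%. Of the 7 changes, 2 were above 0 at 24 h and 6 at 72 h. In CCD 2 and 1 of the 14 regulators passed at 24 h and 72 h, and 2 and 1 of the 5 hormone receptors and chaperones. In PT-S1 at 24 h these counts were 2 of 12 and 3 of 5, against 17.8% of genes. At 72 h they were 3 of 13 and 2 of 5, against 20.5%. These lists too were chosen with earlier results of these data known, so the counts are a description. Fxyd2, the gamma subunit of the sodium pump, had 636 TPM ± 248 in sham and 873 ± 197 in UNx animals of CCD at 72 h, a change of 0.56 (limma adjusted p = 0.756). In PT-S1 at 24 h Hsp90ab1, a chaperone of steroid receptors, had 596 TPM ± 143 and 847 ± 108, a change of 0.54. Hsd11b1, which regenerates glucocorticoid, had 12.0 TPM ± 4.47 and 42.6 ± 39.3, a change of 1.00. In the same table Cul3 changed by -1.30 and Furin, a protease that cleaves ENaC, by -1.08. In PT-S1 at 72 h Pdpk1, the kinase that activates SGK1, had 18.4 TPM ± 2.40 and 12.1 ± 1.28 without overlap, as 5.58% of genes had, a change of -0.65 (limma adjusted p = 0.237). Dusp1 had a change of -0.65 there, Fxyd4 of 0.46 and Fxyd2 of 0.24. Without the 2 UNx libraries that stood apart, the change was -0.31 for Pdpk1, -0.29 for Dusp1, 0.20 for Fxyd4 and -0.18 for Fxyd2.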

How the data were processed

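The authors deposited 4 tables of TPM, 1 for each segment and time; STAR, RSEM 1.3.3 and the build GRCm39 are named in the submitters' processing notes. TPM keeps no depth, so depth is unknown and no counting error was computed. All 69 columns were used: 47 matched a single sample by name and 22 matched a group and animal only. The number beside the group name in a sample title was taken as the mouse, and libraries of an animal were averaged on log2(TPM + 1), a pseudocount of 1. Genes averaging 1 TPM or more over animals were tested with limma 3.58.1 in R 4.3.3 (mean-variance trend, two-sided), and the scripts were tested on simulated data. Whether PT-S1 and CCD animals are the same, and whether animals of a group were prepared together, is not in the labels. The members and gene lists were chosen with earlier results of these data known. Named pathway genes are those past the threshold and, in each table, the 2 highest and 2 lowest changes with a mean TPM of at least 10; the 3 genes most like Scnn1b, Sgk1 and Tsc22d3 were named, passing over members and unnamed gene models. Library correlations under 0.92 marked libraries as standing apart. Alternatives were another pseudocount, no filter, quantile and median-ratio scaling, libraries as replicates, an animal random effect, a replicate block and leaving out animals or those libraries. Levels, likeness and ratios without those libraries were added after the data were seen.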

Additional observations from a re-analysis of the deposited data

Results flagged for a closer look

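Of 45 sets of 4 or more animals in which a member was measured, 3 held an animal far from the others by Dixon's criterion, where chance gives about 1 in 20. Sgk1 in PT-S1 at 72 h was 185.765 TPM in sham animal 3, against 13.8 to 48.4 TPM in the others. Scnn1g in CCD at 72 h was 870.115 TPM in UNx animal 1, against 737 to 757 TPM. Nedd4l in CCD at 72 h was 257.04 TPM in sham animal 1, against 377 to 395 TPM.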

How the results depend on the processing

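No member passed the threshold under any alternative except Nedd4l in CCD at 72 h, where the count of members called was 1 without the libraries of low correlation and 0 to 1 on leaving out 1 animal. Counts over all genes depended far more on the setting. In PT-S1 at 24 h the count was 0, and 2 without a filter, 1 with median-ratio scaling, 85 with every library as a replicate, 100 with animal as a random effect, 1 without libraries of low correlation, 81 with a replicate block, and 0 to 8 on leaving out 1 animal. In PT-S1 at 72 h it was 0, and 18, 10 and 1 with every library, the random effect and without low-correlation libraries. In CCD at 24 h it was 136, and 1 without a filter, 1027 and 485 with every library and the random effect, 0 with the replicate block, and 7 to 78 on leaving out 1 animal. In CCD at 72 h it was 82, and 7 without a filter, 150 with every library, 129 without the low-correlation library, 3 with the replicate block, and 8 to 73 on leaving out 1 animal.

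Animals with the same number did not deviate together (correlations of -0.37 to 0.33, and 4 of 15 numbers correlated best with their own), so the numbers were not taken as pairs. With the replicate block Zbtb16 in CCD at 24 h had an adjusted p of 0.151, Hsd11b1 in PT-S1 at 24 h one of 0.0418, and Sgk1 in CCD at 24 h changed by -0.17.

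Changes that turned sign had been between -0.51 and 0.24 with the settings of the report: with median-ratio scaling Tsc22d3 in PT-S1 at 24 h (0.0020), Nedd4l in PT-S1 at 72 h (0.010) and Scnn1b in CCD at 24 h (0.0100); with quantile normalization Scnn1b (0.00030) and Hsd11b2 (-0.0057) in CCD at 72 h; with every library as a replicate Scnn1a in CCD at 24 h (-0.0090) and Kcnj1 in CCD at 72 h (0.0022); and without low-correlation libraries Nedd4l (0.15), Fkbp5 (0.0618) and Fxyd2 (-0.18) in PT-S1 and Hsd11b2 (-0.0940) in CCD at 72 h. Leaving out 1 animal gave ranges across 0 for Fkbp5 in PT-S1 at 24 h (-0.49 to 0.10), and in CCD for Scnn1b (-0.13 to 0.0466), Scnn1g (-0.0394 to 0.0643), Sgk1 (-0.17 to 0.30) and Nedd4l (-0.26 to 0.0167) at 24 h and Scnn1b (-0.10 to 0.0710), Scnn1g (-0.24 to 0.0069), Hsd11b2 (-0.15 to 0.25) and Kcnj1 (-0.23 to 0.0580) at 72 h. The cause of these shifts was not tested.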
